A study of Mus musculus with 24 samples.

Results

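The collagen gene family is described here across limb buds treated with a flame retardant for a short and a longer time. The members are the genes whose symbol is Col, a number, the letter a and a number, with nothing after it. Of 44 such symbols in the deposited tables, 42 had a mean of at least 1 CPM (the read count of the gene scaled to the library's total count) in 1 or more of the 6 groups and were kept, out of 25844 genes in all. By the molecule they form, 8 are collagens of cartilage, 7 are fibrillar collagens outside cartilage, 9 are the chains of collagens IV, VII, XV and XVIII in basement membranes or anchored to them, and 18 belong to other types. Col19a1, which is also found at basement membranes, is counted among the other types. Just inside the bound of 1 CPM lay Col6a5, with a highest group mean of 2.30 CPM, and Col4a3, with 2.39 CPM. Just outside lay Col6a4, with 0.787 CPM, and Col28a1, with 0.746 CPM.

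Poly-A RNA was sequenced from forelimb buds of CD1 mouse embryos of gestation day 13, grown in culture for 3 or 24 h. The medium held 10 µM BPDP, 1 µM BPDP or only the solvent DMSO, which is the control. BPDP is tert-butylphenyl diphenyl phosphate, a flame retardant and plasticizer of the organophosphate ester class. Each of the 6 combinations of dose and time had 4 libraries, 24 in all, and every embryo was of the same outbred strain with no transgene named. Whether a library came from 1 limb bud or from pooled buds, and whether replicates came from separate litters, is not given in the sources used here. Every p-value therefore reflects how these libraries spread, which may be technical.

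Collagens are proteins of the extracellular matrix whose chains wind around each other in threes into a triple helix. Fibrillar collagens give tissues tensile strength, network-forming collagen IV carries the sheets beneath epithelia and around vessels and muscle fibres, and other members coat fibrils, anchor cells or span the cell membrane. In the limb bud, mesenchymal cells condense and become chondrocytes, which replace a matrix rich in collagen I by one of collagens II, IX and XI, while chondrocytes that mature further make collagen X.

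Total counts ran from 14165947 to 20823058 per library. The chondrocyte list without collagens, which holds genes such as Acan and Sox9, summed to 935 to 2768 CPM over the libraries, the skeletal muscle list to 821 to 2649 CPM and the epidermal list to 960 to 2889 CPM, and none of their measured members was at 0 throughout a group. Some libraries stood apart in ways that touch collagens. Replicate 2 of 1 µM at 24 h deviated from its group with the GC content of transcripts (Pearson r = -0.276 across 12658 genes, which are not independent replicates). Replicate 1 of the same group deviated the other way (r = 0.265), and the other 22 libraries gave values between -0.113 and 0.1. Replicate 4 of 10 µM at 24 h held genes of kidney. A list of 12 kidney genes, chosen after these values were seen, summed to 273 CPM in that library, against 0.452, 0.225 and 0 CPM in replicates 1 to 3 of the group and at most 2.43 CPM in any of the other 20 libraries. Kap, a protein of proximal tubule cells, stood at 56.3 CPM there and at 0 CPM in replicates 1 to 3, and all 12 genes of the list were above 0 in that library.

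Collagen IV genes of the kidney filter were high in the same library. Col4a4 codes for a chain of the collagen IV of the glomerular basement membrane and had 0.201, 0.281, 0.122 and 17.4 CPM in replicates 1 to 4 of 10 µM at 24 h, against 0.585, 0.546, 0.256 and 0.401 CPM in the 24 h controls. Col4a3, its partner chain, had 0.151, 0, 0.183 and 9.22 CPM with 10 µM at 24 h and 0, 0.109, 0 and 0 CPM in the 24 h controls. A count of 0 allows up to 0.176 CPM at the depth of replicate 1 of these controls, from 3 counts and for counting error only. Replicate 4 was the only library of its group above 0.5 CPM in either gene, and both genes were kept through it alone: without that library the rule kept 40 genes. Neither gene passed the filter on low counts in the comparison of 10 µM with control, so neither was tested there. The part of the kidney genes in other values of that library was not tested. Col4a3 and Col4a4 lie head to head on chromosome 1 (mm10), with annotated starts 72 bases apart, so 1 promoter window covers both. It is shown because the genes that stood out in this library share it. The RefSeq window of Col4a4 (GRCm38.p6, chr1:82586800-82587099, minus strand) runs from 250 bases before to 50 bases after its start, and capitals mark the 73 bases from the start of Col4a3, which is read to the left, to the start of Col4a4, which is read to the right.
Col4a4: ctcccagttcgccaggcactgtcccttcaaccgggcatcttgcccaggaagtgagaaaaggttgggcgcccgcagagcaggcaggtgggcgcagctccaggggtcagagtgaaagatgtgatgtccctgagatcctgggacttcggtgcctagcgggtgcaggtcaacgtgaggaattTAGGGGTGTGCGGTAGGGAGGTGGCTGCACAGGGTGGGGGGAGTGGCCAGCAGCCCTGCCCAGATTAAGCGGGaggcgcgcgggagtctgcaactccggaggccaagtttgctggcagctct
Neither strand of this window held TATAAA (the TATA box), CCAAT (the CCAAT box), GGGCGG (the GC box), TGTGGT (the core bound by RUNX factors) or ACAAAG (a core bound by SOX factors).

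**Figure D1:**
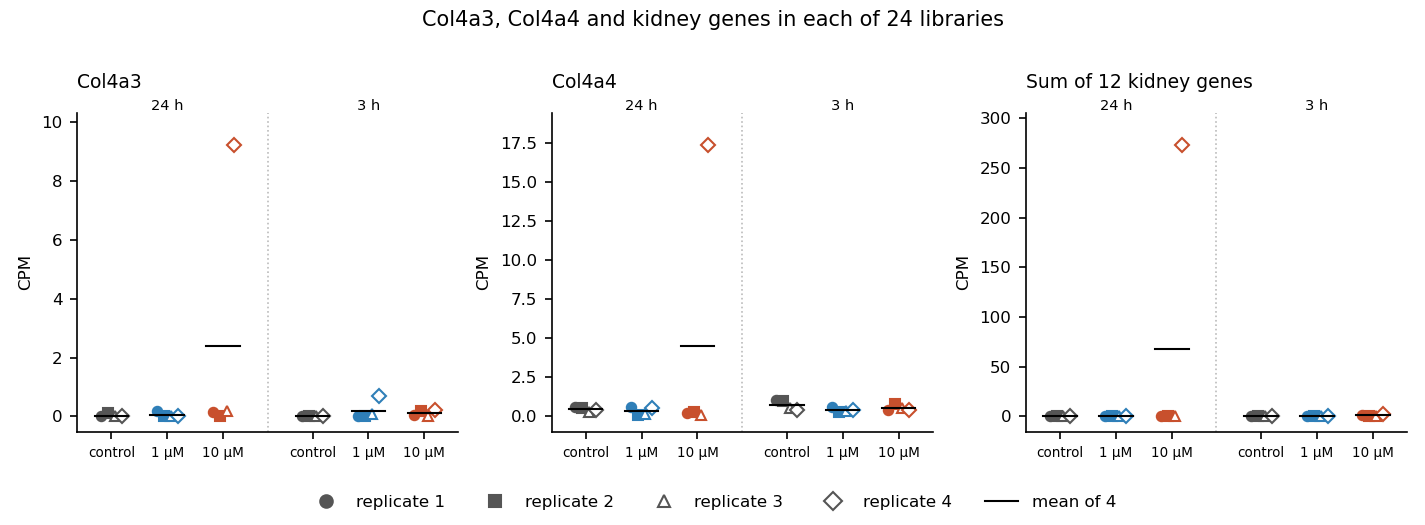
CPM of Col4a3, of Col4a4 and of the sum of 12 kidney genes (vertical axes) in each of 24 libraries, by dose at 24 h and at 3 h, with a marker for each replicate number and a line at the mean of 4. Replicate 4 of 10 µM at 24 h stands at 9.22 CPM of Col4a3, 17.4 CPM of Col4a4 and 273 CPM of kidney genes, and the other libraries lie near 0.

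Collagens made up 2.64% ± 0.402 of all counts with 10 µM at 24 h, 2.36% ± 0.126 with 1 µM and 2.25% ± 0.439 in the 24 h controls (mean ± SD, n = 4 each). At 3 h the shares were 1.52% ± 0.2996 with 10 µM, 1.44% ± 0.186 with 1 µM and 1.54% ± 0.244 in the controls. In bulk tissue, more cells of a type and more RNA per cell cannot be told apart, here and in all values below. Between genes, levels are compared as FPKM, the authors' deposited value, which is scaled by gene length and by depth. Col2a1 stood first with a mean of 874 FPKM over 24 libraries, followed by Col1a1 with 466, Col1a2 with 398 and Col3a1 with 335 FPKM. The chains of collagen IX came next, Col9a2 with 215, Col9a3 with 209.7 and Col9a1 with 201 FPKM, and their ranges over libraries overlapped almost wholly, from 96.6 to 379 FPKM in all. Col26a1, a collagen first known from testis and ovary, had 129 FPKM, with a range of 113 to 150.4 FPKM. At the other end, Col6a5, Col4a4 and Col4a3 averaged 0.160, 0.115 and 0.0541 FPKM. The cartilage collagens held 53.4% ± 1.40 of the collagen FPKM with 10 µM at 24 h, 50.7% ± 3.72 with 1 µM and 49.3% ± 2.94 in the 24 h controls, against 36.9% ± 1.95, 36.0% ± 1.54 and 37.2% ± 1.84 in the same order at 3 h. The 24 h libraries did not overlap with the 3 h libraries in this share, whose lowest value at 24 h was 46.1% and whose highest at 3 h was 39.8%. The fibrillar collagens held 32.3% ± 1.04, 34.1% ± 3.91 and 33.5% ± 1.38 at 24 h and between 41.2% and 42.3% on average at 3 h.

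Tests were run on all genes with edgeR's quasi-likelihood test, and a gene was called at a Benjamini-Hochberg adjusted p under 0.05. Time in culture went with more called collagens than BPDP did. Between 24 and 3 h, 14 of 41 tested collagens were called in the controls, all 14 higher at 24 h, where 9.55% of all genes tested were called, 5.45% higher and 4.1% lower. With 10 µM, 25 of 40 were called over time, 22 higher and 3 lower, beside 31.7% of all genes, 16.8% higher and 14.9% lower. With 1 µM, 26 of 40 were called over time, 24 higher and 2 lower, beside 22.1% of all genes, 12.2% higher and 9.9% lower. Between 10 µM and control at 24 h, 3 of 40 collagens were called, 2 higher and 1 lower, beside 6.21% of all genes, 2.77% higher and 3.44% lower. No collagen was called between 1 µM and control at 24 h, where 0.077% of all genes were, nor at 3 h for 10 µM (0.00644% of all genes) or 1 µM (0% of all genes). At an unadjusted p under 0.05 these 3 comparisons held 6, 1 and 0 of 40 collagens, and DESeq2 called 2, 1 and 0, beside 0.326%, 3.87% and 0% of all genes. Groups were fully apart in CPM over time for 11 of 41 collagens in the controls, all 11 higher (16% of all genes, 6.91% higher and 9.07% lower). With 10 µM this held for 17 of 40, 14 higher and 3 lower (34.7%, 11% higher and 23.7% lower). With 1 µM it held for 23 of 40, 20 higher and 3 lower (23.4%, 12.5% higher and 10.9% lower). Between 10 µM and control at 24 h it held for 4 of 40, 3 higher and 1 lower (13.5%, 5.63% higher and 7.87% lower). In the 8 comparisons of 2 groups the median of the log2 fold changes of all genes stayed within -0.017 and 0.0092.

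The tests as reported did not pair libraries. An alternative fit took the replicate number as a block, which treats same-numbered libraries as pairs. The bound for pairing was a correlation of 0.1. Every same-numbered pair passed it in the comparisons with control, within each BPDP dose over time and between the doses at 24 h. No label says that the numbers pair libraries. With 10 µM over time, replicates 2, 3 and 4 correlated best with another number. Between 10 µM and control at 24 h this was so for replicate 1. Results with the block rest on treating same-numbered libraries as pairs. With the number as a block, 9 collagens were called between 10 µM and control at 24 h, 7 higher and 2 lower, beside 10.6% of all genes. The 6 added genes were Col2a1, Col9a1, Col9a3, Col11a1 and Col5a1, which were higher, and Col7a1, which was lower.

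**Figure D2:**
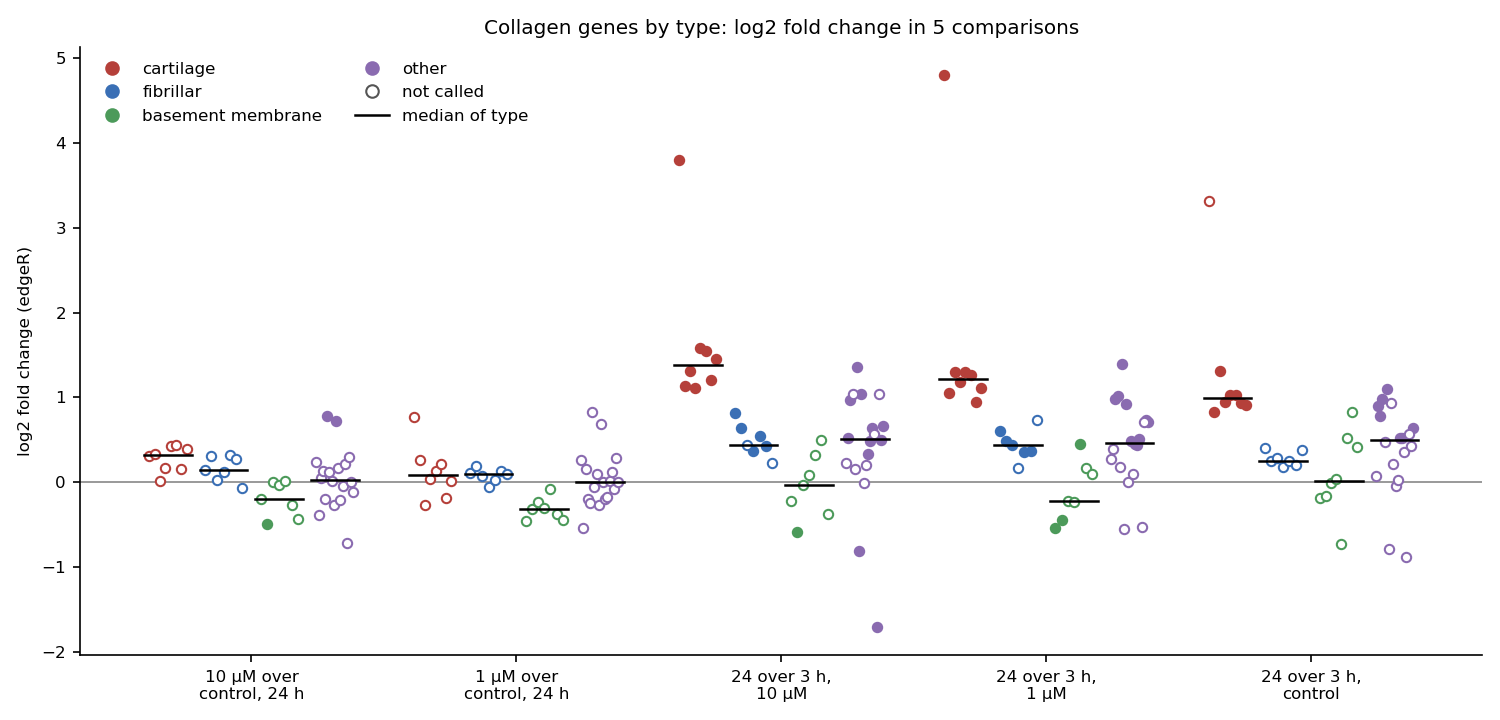
The log2 fold change of each tested collagen (vertical axis, edgeR) in 5 comparisons, by collagen type, with filled points for called genes, open points for genes that were not called and a line at the median of the type. Over time the cartilage collagens lie highest, with medians of 1.39 at 10 µM, 1.22 at 1 µM and 0.99 in the controls, and between 10 µM and control only 3 points are filled.

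All 8 cartilage collagens had log2 fold changes above 0 between 24 and 3 h in every dose group. All 8 were called higher with 10 µM (median 1.39, beside 16.8% of all genes) and with 1 µM (median 1.22, beside 12.2%). In the controls 7 of 8 were (median 0.99, beside 5.45%). The exception there was Col10a1, whose log2 fold change of 3.32 exceeded that of the other 7 and missed the threshold. With 1 µM the call of Col9a2 over time was lost in 4 of 18 alternative fits, the replicate block among them. The adjusted p reached 0.292, while 0 of 8 fits without 1 library lost the call. Its lowest library with 1 µM at 24 h, at 411 CPM, was below the highest at 3 h, at 457 CPM. Col2a1, the main fibril-forming collagen of cartilage, had 6743, 6563, 4097 and 4652 CPM in replicates 1 to 4 of the 24 h controls and 3255, 3053, 2458 and 2207 CPM in the 3 h controls. Every 24 h control was above every 3 h control (log2 fold change 1.03, SE 0.190, adjusted p = 0.00430). With 10 µM it had 8519, 8183, 6154 and 6454 CPM at 24 h and 3514, 2579, 2044 and 2417 CPM at 3 h, and these groups did not overlap either (log2 fold change 1.59, SE 0.155, adjusted p = 1.5e-06). With 1 µM it had 5995, 5815, 6217 and 6323 CPM at 24 h and 2598, 2843, 2099 and 2329 CPM at 3 h (log2 fold change 1.30, SE 0.110, adjusted p = 9.73e-07). Chondrocyte genes that are no collagens moved with these: 6 of 10 tested were called higher in the 24 h controls, where the list summed to 1609 to 2399 CPM, against 955 to 1398 CPM in the 3 h controls, and their part in the result was not tested.

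Collagen IX, built of the chains of Col9a1, Col9a2 and Col9a3, sits on the surface of collagen II fibrils. Col9a1 had 1158, 1059.7, 697 and 803 CPM in the 24 h controls and 556, 524, 389 and 375 CPM in the 3 h controls (log2 fold change 1.03, SE 0.172, adjusted p = 0.00242). Col9a2 had 896, 1088, 635 and 744 CPM at 24 h and 448, 525, 428 and 369 CPM at 3 h in the controls (log2 fold change 0.94, SE 0.144, adjusted p = 0.00139). Col9a3 had 905, 998, 585 and 684 CPM at 24 h and 476, 526, 370.4 and 337 CPM at 3 h (log2 fold change 0.91, SE 0.165, adjusted p = 0.00397). For each of the 3 chains the control groups were fully apart. Within the same molecule the FPKM ratio of Col9a3 to Col9a2 was 0.905 ± 0.0432 in the 24 h controls and 0.922 ± 0.0844 in the 3 h controls, a difference smaller than the spread. With 10 µM at 24 h it was 1.10, 1.09, 1.08 and 0.999 in replicates 1 to 4, against 0.9695, 0.881, 0.885 and 0.884 in the 24 h controls. All 4 ratios were higher with 10 µM (exact two-sided permutation p = 0.0286, the smallest that 4 against 4 libraries allow, adjusted p = 0.0857 over 18 tests of chain ratios).

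Collagen XI forms the core of cartilage fibrils together with collagen II. Col11a2 had 993, 1122, 528 and 624 CPM in the 24 h controls and 408, 429.7, 268 and 227 CPM in the 3 h controls, with no overlap (log2 fold change 1.31, SE 0.258, adjusted p = 0.0110). Col11a1 had 822, 921, 472 and 613 CPM at 24 h and 531, 463, 328 and 286 CPM at 3 h, where replicate 3 at 24 h lay below replicate 1 at 3 h (log2 fold change 0.83, SE 0.215, adjusted p = 0.0333). This call was lost without either of replicates 1 and 2 at 24 h or without any of replicates 2, 3 and 4 at 3 h, with adjusted p up to 0.0989. The FPKM ratio of Col11a1 to Col11a2 was 0.653, 0.647, 0.706 and 0.776 in replicates 1 to 4 of the 24 h controls and 1.03, 0.850, 0.966 and 0.996 in the 3 h controls. All 4 ratios at 24 h were below all 4 at 3 h (exact two-sided permutation p = 0.0286, the smallest that 4 against 4 libraries allow). Over the 18 tests of chain ratios the adjusted p was 0.0857, so it did not pass. With 10 µM at 24 h the ratio was 0.811, 0.817, 0.899 and 0.930, and all 4 of these were above the 4 of the 24 h controls, with the same p and adjusted p. None of the 18 ratio tests passed after adjustment. Col27a1, a fibril-forming collagen of growing cartilage, had 329, 566, 284 and 327 CPM in the 24 h controls and 199, 238, 199 and 149 CPM in the 3 h controls (log2 fold change 0.95, SE 0.170, adjusted p = 0.00434).

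With 10 µM at 24 h all 8 cartilage collagens had log2 fold changes above 0 against control, with a median of 0.32, and none was called. Col2a1 differed by 0.43 on the log2 scale (SE 0.185, adjusted p = 0.208), and replicates 3 and 4 of 10 µM lay below replicates 1 and 2 of the controls. With the replicate block it passed, at a log2 fold change of 0.44 and an adjusted p of 0.0401 in edgeR. Col9a1 had 1402, 1387, 1069 and 1114 CPM with 10 µM and 1158, 1059.7, 697 and 803 CPM in the controls (log2 fold change 0.43, SE 0.160, adjusted p = 0.140), so that each 10 µM library was above the control of the same number. It passed with the block (0.45, adjusted p = 0.0118), and in the authors' deposited table its adjusted p was 0.0387. Col9a3 had 1150.5, 1155, 849 and 944 CPM with 10 µM and 905, 998, 585 and 684 CPM in the controls. It passed with the block (0.40, adjusted p = 0.0158, edgeR) and within replicates 3 and 4 alone. Col11a1 had 1053, 973, 731 and 749.6 CPM with 10 µM, and passed with the block (0.35, adjusted p = 0.0381, edgeR) and within replicates 3 and 4 alone too. At the other end, Col11a2 had 1024, 939.5, 641 and 636 CPM with 10 µM and a log2 fold change of 0.011 (SE 0.239).

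The change over time was set against that of the controls by a contrast of all 24 libraries. Without the block, none of 41 tested collagens was called in it between 10 µM and control, beside 2.59% of all genes called, and 7 collagens had an unadjusted p under 0.05 while DESeq2 called 1, Col26a1, beside 4.14%. Col2a1 had a difference of 0.56 log2 (SE 0.219, adjusted p = 0.206) and Col9a1 one of 0.51 (SE 0.200, adjusted p = 0.204). With the block both passed in edgeR, at 0.57 with an adjusted p of 0.0346 and 0.52 with an adjusted p of 0.0160, beside 3.7% of all genes. This contrast includes the controls over time, where 1 of 4 same-numbered pairs fell short of the bound for pairing. For 1 µM no collagen was called different from control in its change over time, beside 0.0359% of all genes, with 2 at an unadjusted p under 0.05 and 0 called by DESeq2 (0.0853% of all genes).

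**Figure D3:**
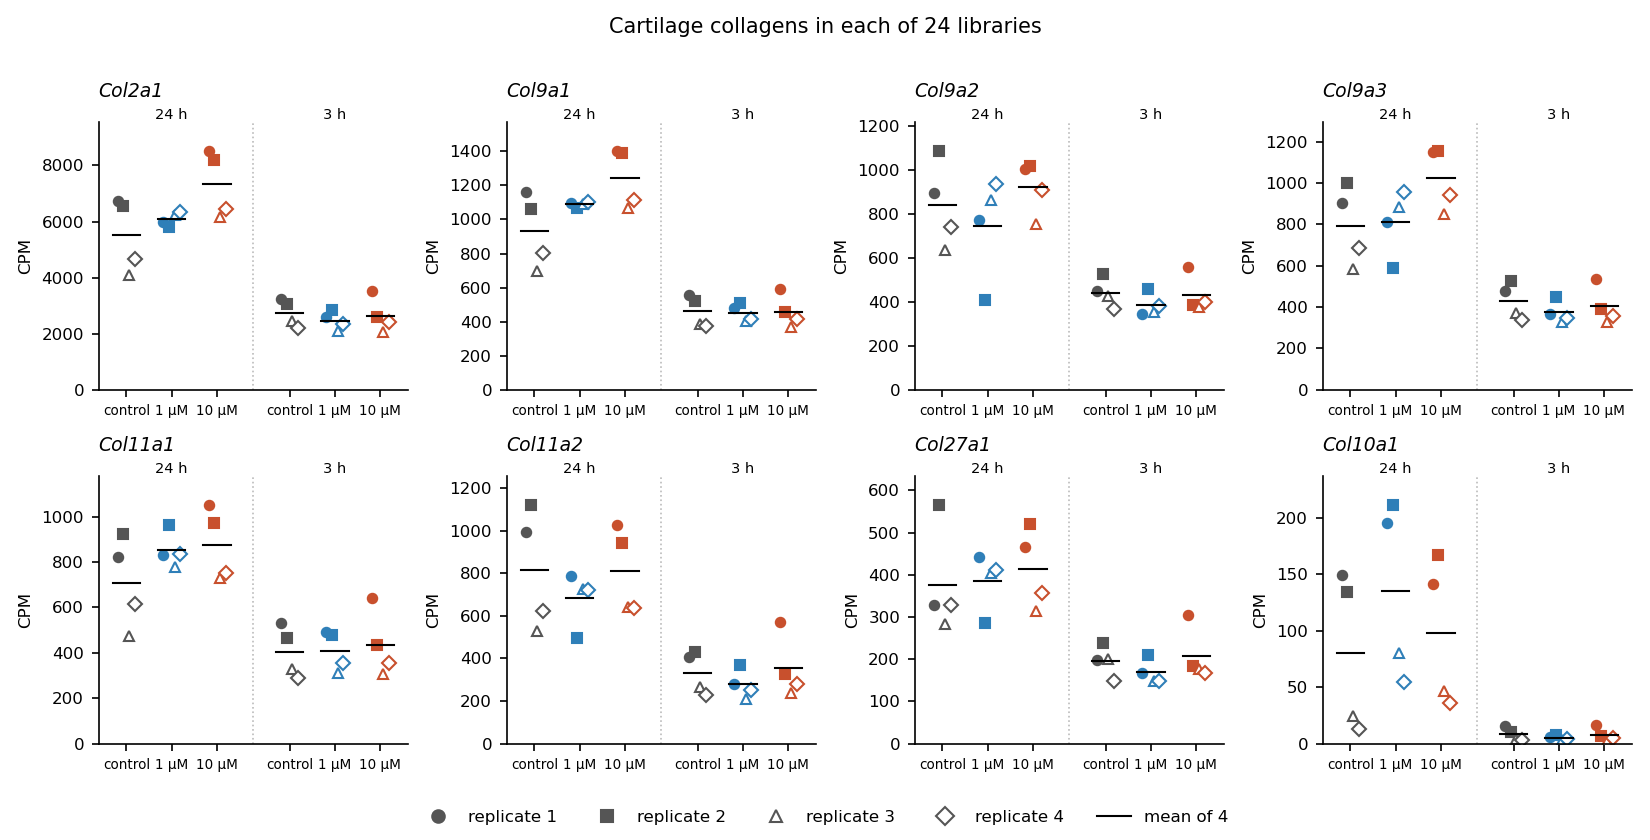
CPM of the 8 cartilage collagens (vertical axes, each from 0) in each of 24 libraries, by dose at 24 h and at 3 h, with a marker for each replicate number and a line at the mean of 4. In Col2a1 the libraries lie between 4097 and 8519 CPM at 24 h and between 2044 and 3514 CPM at 3 h, and in the 10 µM and control groups at 24 h replicates 1 and 2 lie above replicates 3 and 4.

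Col10a1, the collagen of hypertrophic cartilage, varied more between replicate numbers than between doses. It had 141, 167, 46.8 and 35.6 CPM in replicates 1 to 4 of 10 µM at 24 h, 195, 211, 80.1 and 54.3 CPM with 1 µM and 149, 134, 24.4 and 12.8 CPM in the controls. At 3 h it had 16.4, 6.62, 2.54 and 4.44 CPM with 10 µM, 5.33, 7.51, 2.88 and 3.84 CPM with 1 µM and 15.7, 10.1, 3.902 and 2.99 CPM in the controls. In each of the 6 groups, replicates 1 and 2 were above replicates 3 and 4, and the ratio of their means had a median of 3.51 and reached 7.61 in the 24 h controls. Over time Col10a1 was called with 10 µM (log2 fold change 3.80, SE 0.789, adjusted p = 0.0127) and with 1 µM (log2 fold change 4.805, SE 0.645, adjusted p = 0.00323). In the controls the log2 fold change was 3.32 (SE 1.02, adjusted p = 0.108), with the lowest 24 h control at 12.8 CPM and the highest 3 h control at 15.7 CPM. DESeq2 called it (3.31, adjusted p = 0.00350), as did the fit of all 24 libraries (3.31, adjusted p = 0.00951, edgeR). Within replicates 1 and 2 alone it was 3.48 (adjusted p = 0.00149) and within replicates 3 and 4 alone 2.45 (adjusted p = 0.00162, both by edgeR), and the authors' deposited table gave an adjusted p of 0.0181 for this comparison. Osteoblast genes rose over time in the controls as well: 3 of 7 tested, Runx2, Sp7 and Alpl, were called higher at 24 h, beside 5.45% of all genes. The list summed to 207, 458, 206 and 167 CPM in replicates 1 to 4 of the 24 h controls, against 53.3 to 108 CPM in the 3 h controls. Between 10 µM and control at 24 h its median log2 fold change was -0.47, while Col10a1 had 0.32. In that comparison 1 of 7 was called lower, Runx2, beside 3.44% of all genes. The part of osteoblast genes in the result was not tested. Against the controls of the same time Col10a1 was not called at either dose, with standard errors between 0.555 and 0.937 log2. The promoter window of Col10a1 is shown because it is the collagen with the largest fold change over time in each dose group. It spans chr10:34389731-34390030 (GRCm38.p6, RefSeq, plus strand), from 250 bases before to 50 bases after the start, and capitals mark 1 ACAAAG, a core bound by SOX factors, and 1 TATAAA, the TATA box.
Col10a1: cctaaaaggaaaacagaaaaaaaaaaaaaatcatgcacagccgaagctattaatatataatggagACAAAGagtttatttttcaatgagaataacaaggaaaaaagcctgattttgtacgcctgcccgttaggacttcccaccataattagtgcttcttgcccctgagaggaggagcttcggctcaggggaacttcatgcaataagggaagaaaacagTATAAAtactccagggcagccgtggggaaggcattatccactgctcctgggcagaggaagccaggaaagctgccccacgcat
The letters TGTGGT were not found on either strand of this window.

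**Figure D4:**
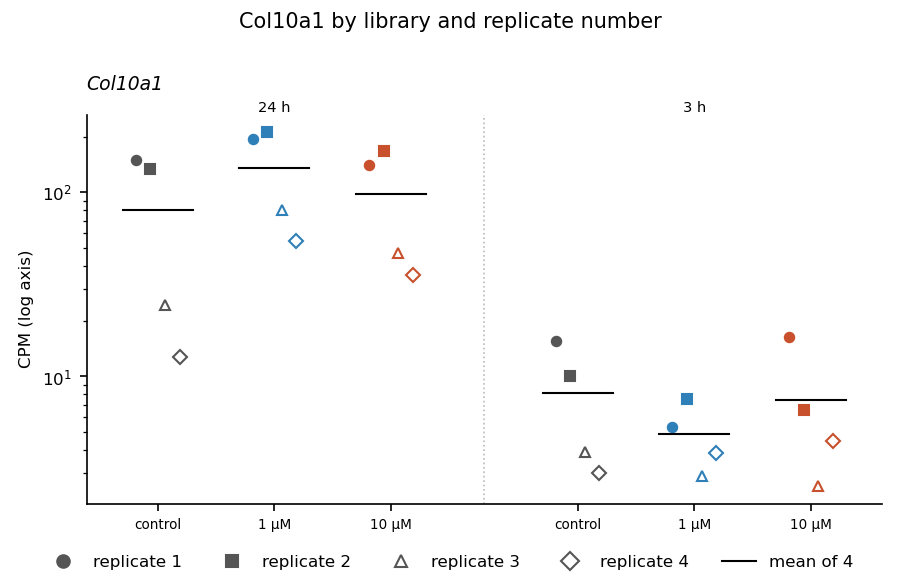
CPM of Col10a1 (vertical axis, log scale) in each of 24 libraries, by dose at 24 h and at 3 h, with a marker for each replicate number and a line at the mean of 4. The libraries lie between 12.8 and 211 CPM at 24 h and between 2.54 and 16.4 CPM at 3 h, and in every group replicates 1 and 2 lie above replicates 3 and 4.

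Many collagens shared the split of Col10a1 by replicate number, those of basement membranes least. Replicates 1 and 2 were both above replicates 3 and 4 in all 6 groups for 7 of 42 collagens (16.7%), namely Col10a1, Col12a1, Col14a1, Col1a1, Col1a2, Col6a3 and Col6a6, and for 143 of 15540 genes with a mean of at least 10 counts (0.92%). For 18 collagens this held in 5 or 6 groups, and for none did the reverse hold in 5 or 6. The share of all genes was not counted for 5 or 6 groups, so the 18 cannot be weighed against it. Of the 9 basement membrane collagens, 0 showed the split in all 6 groups and 1 in 5 or 6. With 1 µM at 24 h the ratio of the means went the other way for Col2a1, Col9a2 and Col9a3, at 0.94, 0.66 and 0.76. The median ratio of replicates 1 and 2 to replicates 3 and 4 was 1.25 over the collagens and 1.02 over those 15540 genes. The labels do not say what the numbers stand for. Within replicates 1 and 2 alone 0 collagens were called between 10 µM and control at 24 h, beside 0.0379% of all genes, and within replicates 3 and 4 alone 8 were, 6 higher and 2 lower, beside 6.13%. The cartilage collagens Col2a1, Col9a1, Col9a3 and Col11a1 were among those 8 and had log2 fold changes of 0.54, 0.55, 0.51 and 0.46 there.

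Of the 7 fibrillar collagens outside cartilage, 5 were called higher at 24 h than at 3 h with 10 µM, 5 with 1 µM and 0 in the controls. Of all genes, 16.8%, 12.2% and 5.45% were called higher in the same order. Col1a1, the main chain of collagen I in skin, tendon and bone, had 4116, 4014, 2889 and 2612 CPM at 24 h and 2527, 2276, 1564 and 2008 CPM at 3 h with 10 µM, with no overlap (log2 fold change 0.81, SE 0.162, adjusted p = 0.00152). With 1 µM it had 4135, 4017, 2643 and 2655 CPM at 24 h and 2671, 2398, 1824 and 1959 CPM at 3 h (log2 fold change 0.60, SE 0.185, adjusted p = 0.0359), where replicates 3 and 4 at 24 h lay below replicate 1 at 3 h, and 5 of 8 fits without 1 library did not call it. In the controls it had 3568, 3684, 2405 and 2817 CPM at 24 h and 2998, 2398, 2119 and 1973 CPM at 3 h (log2 fold change 0.41, SE 0.172, adjusted p = 0.157). Col1a2, its partner chain, had log2 fold changes over time of 0.64 with 10 µM (adjusted p = 0.00109), 0.48 with 1 µM (adjusted p = 0.00868) and 0.25 in the controls (adjusted p = 0.295). Col5a1 and Col5a2, whose collagen V starts and limits the growth of collagen I fibrils, were called in both treated groups, at 0.55 and 0.43 with 10 µM and 0.36 and 0.37 with 1 µM. Col3a1, the collagen of stretchable tissues, was called with 10 µM (0.37, adjusted p = 0.0265) and Col24a1, a minor fibrillar collagen, with 1 µM (0.45, adjusted p = 0.0326), and both calls were lost in at least 4 of 8 fits without 1 library. A difference in the change over time between treated and control libraries was not shown for any of the 7: for Col1a1 the contrast was 0.40 (SE 0.265, adjusted p = 0.543) at 10 µM.

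Between 10 µM and control at 24 h no fibrillar collagen was called and the median log2 fold change was 0.15. Col1a1 had 0.15 (SE 0.179, adjusted p = 0.710) and Col1a2 0.31 (SE 0.135, adjusted p = 0.213). Col5a1 had 1161, 1045, 856 and 901 CPM with 10 µM and 829, 976, 649 and 758 CPM in the controls (log2 fold change 0.32, SE 0.130, adjusted p = 0.176), and passed with the block at an adjusted p of 0.0462. The FPKM ratio of Col1a1 to Col1a2 averaged 1.16 ± 0.127 over 24 libraries and ran from 0.922 to 1.46. The FPKM ratio of Col2a1 to Col1a1 was 2.40, 2.37, 2.47 and 2.87 in replicates 1 to 4 of 10 µM at 24 h and 2.20, 2.07, 1.98 and 1.92 in the controls. All 4 ratios were higher with 10 µM (exact two-sided permutation p = 0.0286, adjusted p = 0.0857 over the 18 ratio tests). With 1 µM the ratio was 1.68, 1.68, 2.73 and 2.77, and in the 3 h controls 1.26, 1.48, 1.35 and 1.30.

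Of the basement membrane collagens tested, 1 of 7 was called over time with 10 µM, 3 of 7 with 1 µM and 0 of 8 in the controls. Of all genes, 31.7%, 22.1% and 9.55% were called in the same order. Col4a1, a chain of the collagen IV found in nearly all basement membranes, had 417, 388, 380.4 and 419.9 CPM in replicates 1 to 4 of 10 µM at 24 h, 367, 306, 370.5 and 349.5 CPM with 1 µM and 503, 380.4, 338 and 397 CPM in the controls. At 3 h it had 499, 446, 384 and 437 CPM with 10 µM, 427, 433, 347 and 408 CPM with 1 µM and 485, 419.9, 388 and 357 CPM in the controls, and every pair of groups overlapped but 1 µM at 24 h with 10 µM at 24 h and 1 µM at 24 h with 10 µM at 3 h. Its log2 fold change was -0.0058 (SE 0.139) over time in the controls and -0.00077 (SE 0.126) between 10 µM and control at 24 h. Col4a2, the partner chain, stayed close to it: the FPKM ratio of Col4a1 to Col4a2 was 1.25 ± 0.0707 over 24 libraries, from 1.15 to 1.41. These 2 genes overlap head to head on chromosome 8, and the window around their starts is shown for that arrangement. In the RefSeq window of Col4a1 (GRCm38.p6, chr8:11312777-11313076, minus strand), capitals mark the 22 bases from the start of Col4a1, read to the right, to the start of Col4a2, read to the left, which both genes transcribe. Whether the counting used strand is not given in the sources used here, so reads from these bases cannot be assigned to either gene from the counts.
Col4a1: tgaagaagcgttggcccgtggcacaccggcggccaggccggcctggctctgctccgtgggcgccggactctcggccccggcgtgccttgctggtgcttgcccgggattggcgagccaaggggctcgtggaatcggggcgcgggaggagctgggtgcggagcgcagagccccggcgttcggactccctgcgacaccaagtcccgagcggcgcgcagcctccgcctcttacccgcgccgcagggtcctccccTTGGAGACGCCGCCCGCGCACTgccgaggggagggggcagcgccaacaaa
Over both strands the window holds 1 CCAAT box and 1 GC box with the letters GGGCGG.

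Col18a1, the source of endostatin and a collagen of vessel and epithelial basement membranes, was the 1 collagen called lower with 10 µM. It had 132, 120.4, 116 and 106 CPM in replicates 1 to 4 of 10 µM at 24 h and 187, 163, 177 and 142 CPM in the controls. The highest 10 µM library, at 132 CPM, was below the lowest control, at 142 CPM (log2 fold change -0.49, SE 0.110, adjusted p = 0.0198). Groups did not overlap for 13.5% of all genes, with 7.87% lower with 10 µM as here. The call was lost without replicate 2, 3 or 4 of 10 µM or without replicate 3 of the controls, with adjusted p between 0.0505 and 0.0821. Over time it fell with 10 µM, with 194, 209, 175 and 193 CPM at 3 h (log2 fold change -0.59, SE 0.0801, adjusted p = 4.45e-05), and with 1 µM, with 158, 103, 152 and 133 CPM at 24 h and 199.7, 192, 165 and 185 CPM at 3 h (log2 fold change -0.45, SE 0.109, adjusted p = 0.00957). In the controls it had 215, 197, 174 and 173 CPM at 3 h and differed over time by -0.16 log2 (adjusted p = 0.432), while the contrast between the changes at 10 µM and in the controls was -0.44 (SE 0.156, adjusted p = 0.150). Endothelial genes moved with it. Of 12 measured, 6 were called lower with 10 µM at 24 h, beside 3.44% of all genes called lower. Among the 6 were Pecam1, Cdh5 and Kdr at -0.72, -0.77 and -0.56 log2. The list summed to 238 to 297 CPM with 10 µM at 24 h, against 362 to 445 CPM in the controls. Macrophage genes summed to 50.02 to 75.2 CPM with 10 µM and 143 to 187 CPM in the controls, with 5 of 7 called lower. Epidermal genes summed to 1120.2 to 1688 CPM with 10 µM and 1723 to 2867 CPM in the controls, with 2 of 10 called lower. The share of 3.44% of all genes called lower applies to all 3 lists. None of the measured markers in these 3 lists was at 0, and their part in the values of Col18a1 was not tested.

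Of the 7 tested basement membrane collagens, Col18a1 included, 6 had log2 fold changes below 0 between 10 µM and control at 24 h, with a median of -0.20. Col19a1, which is not among the 7, had a value above 0, at 0.78. Col7a1, which anchors the skin's basement membrane to the dermis, had 36.5, 28.5, 26.2 and 21.7 CPM with 10 µM and 49.7, 42.6, 34.4 and 26.9 CPM in the controls. It passed with the block (-0.42, adjusted p = 0.0146) and had an adjusted p of 0.241 without it. Col15a1, a relative of Col18a1 around vessels and muscle, showed its lowest values with 1 µM at 24 h. It had 73.9, 68.1, 68.0 and 65.0 CPM with 1 µM and 108, 96.9, 83.1 and 84.9 CPM in the controls, and every library with 1 µM was below every control. Groups did not overlap for 3.48% of all genes, with 1.65% lower with 1 µM as here. The log2 fold change was -0.45 (SE 0.108, adjusted p = 0.290), and over time with 1 µM it fell, with 112, 106, 83.3 and 97.4 CPM at 3 h (log2 fold change -0.54, SE 0.0885, adjusted p = 0.000404). With 1 µM all 7 tested basement membrane collagens had log2 fold changes below 0, with a median of -0.31, and none was called, while Col19a1, outside the 7, had 0.83. Col4a5, whose chain belongs to the collagen IV of kidney and smooth muscle, was called higher over time with 1 µM (0.45, adjusted p = 0.0193). This call was lost in 3 of 8 fits without 1 library, with adjusted p between 0.0696 and 0.0746.

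Col25a1 and Col19a1 were the collagens called higher with 10 µM at 24 h. Col25a1 codes for a collagen that spans the membrane and is known in mice for the entry of motor axons into muscle. It had 84.1, 76.4, 89.7 and 94.9 CPM in replicates 1 to 4 of 10 µM at 24 h and 49.8, 68.3, 46.2 and 48.9 CPM in the controls, with no overlap (log2 fold change 0.72, SE 0.108, adjusted p = 0.00176). The call held in each of 8 fits without 1 library, with adjusted p up to 0.0109, and the authors' deposited table gave an adjusted p of 4.75e-07. With 1 µM at 24 h it had 60.5, 81.0, 99.3 and 104 CPM, where replicate 1 lay below the highest control (log2 fold change 0.68, SE 0.151, adjusted p = 0.245), and DESeq2 called it (0.69, adjusted p = 0.0177). At 3 h it had 89.6, 69.5, 83.9 and 81.7 CPM with 10 µM and 56.7, 60.02, 57.1 and 47.5 CPM in the controls, and every 10 µM library was above every control. Groups did not overlap for 9.73% of all genes, with 7.42% higher with 10 µM as here. Col25a1 was not called by edgeR at 3 h (log2 fold change 0.48, SE 0.0796, adjusted p = 0.0670), while it passed with the block (0.48, adjusted p = 0.0145, beside 2.16% of all genes) and in DESeq2 (0.48, adjusted p = 0.000143). With 1 µM at 3 h it had 50.3, 64.9, 60.4 and 69.7 CPM (0.17, SE 0.0845). Over time it was called with 1 µM (0.48, adjusted p = 0.0332), a call lost in 6 of 8 fits without 1 library. In the controls its log2 fold change was close to 0 (-0.04, SE 0.104). Between 10 and 1 µM at 24 h the log2 fold change was 0.031 (SE 0.118, adjusted p = 0.941), and both doses were set against the same controls.

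Col19a1, a collagen of basement membrane zones and developing muscle that is read in the opposite direction next to Col9a1 on chromosome 1, was a gene of low level. It had 7.48, 6.63, 6.90 and 6.36 CPM with 10 µM at 24 h, 7.20, 6.45, 7.81 and 7.45 CPM with 1 µM and 3.39, 4.64, 4.20 and 3.86 CPM in the controls. Every treated library at 24 h was above every control. Against control, 10 µM was called (log2 fold change 0.78, SE 0.194, adjusted p = 0.0319) and 1 µM was not (log2 fold change 0.83, SE 0.191, adjusted p = 0.263), while DESeq2 called 1 µM too (0.84, adjusted p = 0.0178). The call for 10 µM was lost in 5 of 8 fits without 1 library, those without any of its own 4 libraries and the one without replicate 4 of the controls, with adjusted p between 0.0626 and 0.0994, while the log2 fold change stayed between 0.73 and 0.83 over the 8. At 3 h it had 4.43, 1.87, 2.68 and 2.57 CPM with 10 µM, 3.81, 2.87, 2.31 and 1.86 CPM with 1 µM and 2.25, 1.93, 1.57 and 1.81 CPM in the controls. Over time it rose in all dose groups, by 1.36 log2 with 10 µM, 1.40 with 1 µM and 1.10 in the controls (adjusted p = 0.000482, 0.000513 and 0.0179 in edgeR's test). The call in the controls was lost without replicate 2 or 3 at 3 h (adjusted p = 0.0521 and 0.0647). Of 8 skeletal muscle genes, 6 were called higher over time in the controls, beside 5.45% of all genes. Between 10 µM and control at 24 h 0 were called, beside 6.21% of all genes, and the part of muscle genes was not tested.

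**Figure D5:**
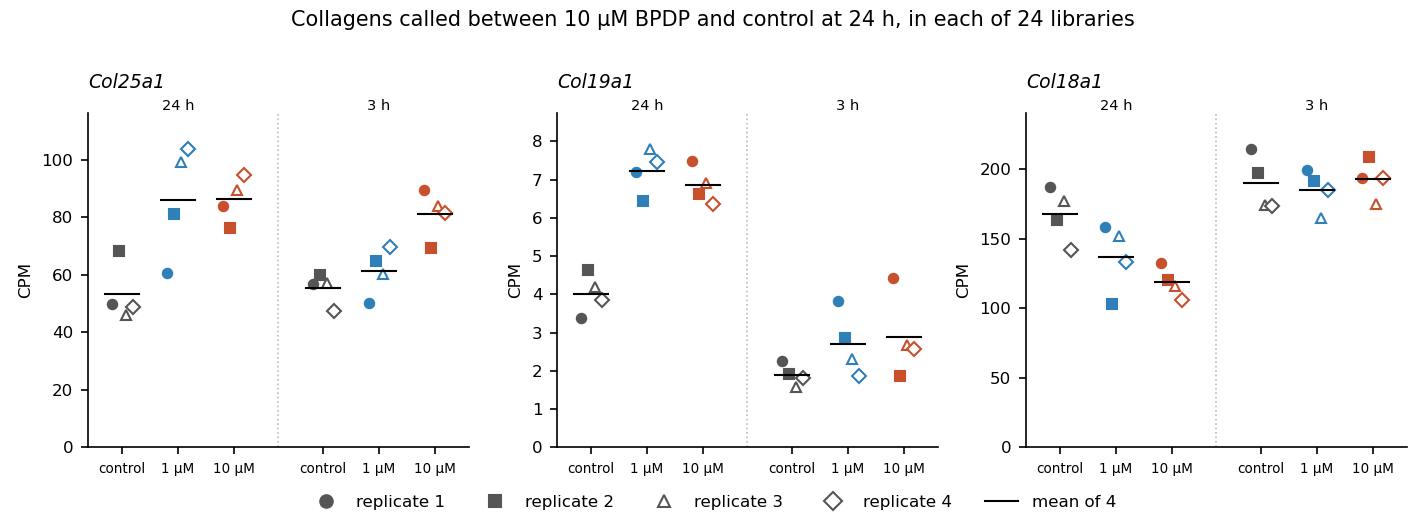
CPM of Col25a1, Col19a1 and Col18a1 (vertical axes, each from 0) in each of 24 libraries, by dose at 24 h and at 3 h, with a marker for each replicate number and a line at the mean of 4. At 24 h the 10 µM libraries lie at 76.4 to 94.9 CPM of Col25a1 against 46.2 to 68.3 CPM in the controls, at 6.36 to 7.48 against 3.39 to 4.64 CPM of Col19a1, and at 106 to 132 against 142 to 187 CPM of Col18a1.

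Among the other types, 7 of 18 were called higher over time in the controls, 9 with 10 µM and 10 with 1 µM. Of all genes, 5.45%, 16.8% and 12.2% were called higher in the same order. Collagen VI forms beaded filaments around cells. Its chain Col6a1 had 562, 510.4, 457 and 416 CPM in the 24 h controls and 430.1, 351, 320.0 and 279 CPM in the 3 h controls (log2 fold change 0.52, SE 0.137, adjusted p = 0.0305). Col6a2 had 583, 513, 493 and 441 CPM and 431, 369.6, 339.6 and 298 CPM in the same groups (log2 fold change 0.52, SE 0.128, adjusted p = 0.0217), and these did not overlap. Both calls were lost without replicate 2, 3 or 4 of the 3 h controls, and that of Col6a1 also without replicate 1 of the 24 h controls, with adjusted p between 0.0653 and 0.117. The FPKM ratio of Col6a1 to Col6a2 was 1.06, 1.04, 0.994 and 1.01 with 10 µM at 24 h and 1.16, 1.19, 1.11 and 1.13 in the controls, all 4 lower with 10 µM (exact two-sided permutation p = 0.0286, adjusted p = 0.0857). Col6a5 and Col20a1 went the other way over time with 10 µM. Col6a5, a late-found chain of collagen VI, had 0.552, 0.674, 0.611 and 0.763 CPM at 24 h and 2.76, 2.32, 1.62 and 2.498 CPM at 3 h with 10 µM (log2 fold change -1.71, SE 0.360, adjusted p = 0.00191). Col20a1, which is related to the fibril-associated collagens, had 5.02, 4.496, 4.76 and 5.98 CPM at 24 h and 12.1, 9.09, 9.18 and 7.91 CPM at 3 h (log2 fold change -0.81, SE 0.178, adjusted p = 0.00267). In the controls neither gene was called, with log2 fold changes below 0 as well. Col20a1 had 4.27, 8.90, 1.74 and 4.26 CPM at 24 h and 7.22, 8.84, 9.38 and 7.38 CPM at 3 h there (log2 fold change -0.78, SE 0.339, adjusted p = 0.173), and Col6a5 had a log2 fold change of -0.88 (SE 0.475, adjusted p = 0.280). The contrast between 10 µM and the controls over time was -0.03 (adjusted p = 0.986) for Col20a1 and -0.84 (adjusted p = 0.517) for Col6a5.

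Col14a1 and Col16a1, which decorate fibrils, and Col8a2, which forms short-chain networks, were called over time in the controls. Col14a1 had 133, 126, 99.2 and 96.3 CPM in the 24 h controls and 87.6, 72.3, 56.7 and 50.5 CPM in the 3 h controls, with no overlap (log2 fold change 0.79, SE 0.157, adjusted p = 0.00819). Col16a1 had 255, 275, 145 and 186 CPM and 123, 137, 106 and 74.1 CPM in the same groups, with no overlap (log2 fold change 0.99, SE 0.201, adjusted p = 0.0131). Col8a2 had 157, 250.003, 172 and 198 CPM and 165, 137, 96.6 and 104 CPM (log2 fold change 0.64, SE 0.162, adjusted p = 0.0293), and lost its call in 5 of 8 fits without 1 library, those without replicate 2 or 4 at 24 h or without replicate 2, 3 or 4 at 3 h. Col13a1, a membrane collagen of the nerve-muscle junction, had 18.2, 24.9, 16.8 and 13.7 CPM at 24 h and 11.03, 11.5, 11.6 and 6.04 CPM at 3 h, again apart (log2 fold change 0.90, SE 0.200, adjusted p = 0.0124). With 10 µM, Col26a1 and Col22a1, a collagen of tissue junctions, were among those called higher over time, at 0.33 and 1.04 log2. With 1 µM, Col8a1, the other chain of collagen VIII, and Col6a3 were, at 0.74 and 0.51. The fibril-associated Col12a1, the membrane collagens Col17a1 and Col23a1 and, among the low members, Col6a6 were called in none of the 8 comparisons of 2 groups. For Col6a6 and Col12a1 this depended on the block. Over time Col6a6 had 1.04 log2 with 10 µM (SE 0.368, adjusted p = 0.0674), 0.71 with 1 µM (SE 0.238, adjusted p = 0.0512) and 0.57 in the controls (SE 0.374, adjusted p = 0.394). With the block it passed at 10 µM (1.07, adjusted p = 9.77e-06) and at 1 µM (0.78, adjusted p = 0.00382), and DESeq2 called it at both doses (adjusted p = 0.0357 and 0.0152). Col12a1 had 0.22 with 10 µM (adjusted p = 0.206) and 0.28 with 1 µM (adjusted p = 0.156), and passed with the block at both (adjusted p = 0.0183 and 0.0233).

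Between 10 and 1 µM at 24 h no collagen was called in the fit of all 24 libraries, beside 3.35% of all genes, with 9 of 41 tested at an unadjusted p under 0.05 and 0 called by DESeq2 (5.16% of all genes). With the block 1 was called, Col15a1, at a log2 fold change of 0.25 (adjusted p = 0.0276, edgeR), beside 4.88% of all genes. Col4a4 entered this fit with 3.69 log2 (SE 1.09, adjusted p = 0.0663), which rests on replicate 4 of 10 µM. The GC-rich members were low in replicate 2 of 1 µM at 24 h. The 8 collagens of at least 60% GC lay at a median of -0.42 log2 from their group mean in that library and the 7 under 50% GC at 0.051. In replicate 1 the medians were 0.22 and -0.0018. Col9a2 had 775, 411, 866 and 939 CPM in replicates 1 to 4 of 1 µM at 24 h, Col11a2 786, 493, 726 and 722 CPM and Col7a1 36.9, 10.1, 36.1 and 30.7 CPM, and in each replicate 2 was the lowest. Without that library, 0 collagens were called between 1 µM and control at 24 h and 24 were called over time with 1 µM, against 0 and 26 with it. The part of GC content in these values was not tested within that library.

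The genes that make and bind collagen were read from lists of 43 genes, of which 37 were tested in each comparison. Between 10 µM and control at 24 h, 2 were called higher and 1 lower, beside 2.77% and 3.44% of all genes, with a median log2 fold change of 0.19. Mia3, which builds the export sites for bulky procollagens, rose by 0.41 log2 (adjusted p = 0.0245, edgeR) and Loxl3, a cross-linking enzyme, by 0.61 (adjusted p = 0.0175). Pcolce, which speeds the cleavage of procollagen ends, fell by 0.66 log2 (adjusted p = 0.0106). No gene of the list was called between 1 µM and control or at 3 h at either dose. Over time 25 of 37 were called higher with 10 µM and 0 lower, beside 16.8% and 14.9% of all genes. The counts were 16 higher and 2 lower with 1 µM, beside 12.2% and 9.9%, and 5 higher and 0 lower in the controls, beside 5.45% and 4.1%. Of the 11 tested genes of hydroxylation and sugar transfer, 10 were called higher over time with 10 µM, 5 with 1 µM and 0 in the controls. P4ha1, a prolyl hydroxylase subunit, had 0.44 with 10 µM and 0.86 (SE 0.464, adjusted p = 0.316) in the controls, and Serpinh1, the collagen chaperone HSP47, 0.43 with 10 µM and 0.16 in the controls (adjusted p = 0.548). Itga10, the collagen-binding integrin subunit of chondrocytes, rose in all dose groups, by 2.03, 1.96 and 1.22 log2 with 10 µM, with 1 µM and in the controls. The contrast between 10 µM and control over time was called for 2 of the 37, Loxl1 and Loxl3, beside 2.59% of all genes.

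Promoter windows from RefSeq (GRCm38.p6, 250 bases before to 50 after a start) were found for 33 of the 42 genes, in 36 windows. The letters GGGCGG, bound by Sp1-like factors, occurred on either strand in 61.1% of the 36 collagen windows and in 35.7% of 32851 windows of all genes. CCAAT occurred in 33.3% of the collagen windows and 37.4% of all, TATAAA in 13.9% and 13.6%, TGTGGT in 8.33% and 16.8%, and ACAAAG in 11.1% and 18.7%. Matches of different motifs can share letters, a match is not a binding site, and these shares carry no test.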

How the data were processed

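RNA of 24 cultured limb bud samples was sequenced. Per the submitters' processing notes, the tools were CASAVA 1.8, STAR 2.5, HTSeq 0.6.1 and DESeq2 2 with the mm10 build. The authors deposited 5 tables with raw read counts per gene and FPKM values, which are scaled by gene length and depth. The same deposited tables hold the authors' log2 fold changes and adjusted p-values, of which only adjusted p-values are printed, as the authors'. Whether counting used strand is not given in the sources used here.

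Counts were joined by gene identifier, and no count differed between tables. Another 10 per-sample columns were not used. CPM used plain library totals. Totals ran from 14165947 to 20823058, and a count of 0 allows up to 0.144 to 0.212 CPM (3 counts, counting error only). The lowest chi-square per degree of freedom between replicates was 4.91, so each library counted as 1 sample.

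Comparisons of 2 groups at the same time or dose were fitted on their 8 libraries with edgeR 4.0.16 (quasi-likelihood, robust, TMM scaling, filterByExpr with minimum count 10 and minimum total 15, R 4.3.3). The contrasts of changes over time, and 10 against 1 µM, came from 1 fit of 24 libraries. P-values were Benjamini-Hochberg adjusted over all genes tested, with a threshold of 0.05. Standard errors came from the fitted log2 fold change and the test statistic. The procedure was tested on simulated data. Chain ratios used the deposited FPKM and exact permutation tests.

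The reported fits held no block, and the replicate block was an alternative. Same-numbered libraries deviated together in the 7 comparisons other than the controls over time (correlations 0.106 to 0.361, every pair over the bound of 0.1). In the controls over time only 3 of 4 pairs did (lowest 0.0854). What the numbers stand for is not in the labels. Alternatives were other size factors, no filter, DESeq2 1.42.0, the replicate block with and without length and GC trends, a term for replicates 1 and 2, fits within these pairs, a fit of all libraries and leaving out each library. The GC trend and the rule without the kidney library were added after seeing the data.

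Every kept collagen could be named, with values in every library for those the results turn on. Of the making and receptor genes, up to 8 called and 2 uncalled per comparison could be named, and up to 3 genes of a marker list. The members and lists were chosen with earlier results of these data known. RefSeq promoters (GRCm38.p6) matched 33 of 42 members.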

Additional observations from a re-analysis of the deposited data

Results flagged for a closer look

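Of 126 groups of 4 libraries, 6 for each of 21 collagens, those with a highest count of at least 10 were examined. In 10 of them 1 library lay far from the other 3 by Dixon's criterion. Chance alone marks about 5% of groups. Col4a3 and Col4a4 were put on the list by name and hold some of the 10, so the 10 cannot be weighed against this share. Replicate 4 of 10 µM at 24 h stood out at 9.22 CPM of Col4a3 and 17.4 CPM of Col4a4, the library with 273 CPM of kidney genes. Col4a3 also had 1 high library among those of 1 µM at 3 h, at 0.704 CPM. Col27a1 had 1 high library with 10 µM at 3 h, at 304 CPM, and 1 in the 24 h controls, at 566 CPM. Col9a2 had 1 high library with 10 µM at 3 h, at 561 CPM. The highest library of 1 µM at 24 h was apart for Col6a1, at 521 CPM, and for Col8a2, at 245 CPM. Col25a1 had 1 high library in the 24 h controls, at 68.3 CPM, and Col13a1 1 low library in the 3 h controls, at 6.04 CPM.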

How the results depend on the processing

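Between 10 µM and control at 24 h, 3 collagens were called as reported, beside 6.21% of all genes. The count was 9 with the replicate block (10.6% of all genes). It was 8 with the block and a length trend removed and 8 with GC removed as well. It was 7 with a term for replicates 1 and 2, 0 within replicates 1 and 2 (0.0379% of all genes) and 8 within replicates 3 and 4 (6.13%). In the fit of 24 libraries it was 5. Among these 5 was Col4a4 (3.32 log2, adjusted p = 0.0457, edgeR), which rests on replicate 4 of 10 µM, the library with kidney genes. The count ran from 1 to 4 with 1 library left out. The single call, without replicate 2, 3 or 4 of 10 µM, was Col25a1. Between 10 µM and control at 3 h, 0 as reported, it was 1 with no filter, with DESeq2, with the block, with the term and within replicates 3 and 4. Between 1 µM and control at 24 h it was 2 with DESeq2 (0.326% of all genes), 2 in the fit of 24 libraries and 1 within replicates 3 and 4 (0.184%). It was 0 to 1 there with 1 library left out, with 1 call without replicate 1 of 1 µM. At 3 h it was 1 with the block and a length trend removed. Between 10 and 1 µM it was 1 with the block, 1 with the term and 0 to 1 with 1 library left out, with 1 call without replicate 1, 2 or 3 of 10 µM. The contrast of the change over time at 10 µM with that in the controls gave 1 with DESeq2, 2 with the block (Col2a1 and Col9a1) and 2 with the term.

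Over time in the controls the count was 14 as reported, beside 9.55% of all genes. It was 22 with the replicate block (12.9% of all genes) and 3 within replicates 1 and 2 (0.278%). With 1 library left out it was 9 to 15. It was 9 without replicate 2 or 3 at 3 h. No label says that the numbers pair libraries in any comparison. In these controls 3 of 4 correlated best with their own number, while with 10 µM over time replicates 2, 3 and 4 did not. Over time at 1 µM the count was 26 as reported (22.1% of all genes) and 12 within replicates 1 and 2 (8.63%). With 1 library left out it was 19 to 26. At 10 µM, 25 as reported (31.7% of all genes), it was 22 to 30 with 1 library left out. The count was above this range with the block (35.3% of all genes) and below it within replicates 1 and 2 (13.3%). The block changed no other count by over 1.5 times. For Col10a1 between 10 µM and control at 24 h, 0.32 log2 as reported, the value was -0.066 without replicate 2 of 10 µM, -0.041 without replicate 4 of the controls and at most 0.87 with 1 library left out. The rule kept 44 genes at 0.5 CPM, 42 at 2 CPM and 40 without the library with kidney genes. The causes of these differences were not tested. Fits within replicate pairs had 2 libraries a group, and depth limits genes such as Col6a5, under 1 CPM in each 10 µM library at 24 h.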
